A study of Mus musculus with 6 samples.

Results

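Myeloid growth factors and monocyte chemoattractants are secreted proteins that control how many macrophages, monocytes and granulocytes form, survive and enter a tissue. Transcripts of 10 such genes were examined in B16 mouse melanoma cells: the growth factors *Csf1*, *Csf2*, *Csf3* and *Il34*, the CC chemokines *Ccl2*, *Ccl7* and *Ccl20*, the CXC chemokines *Cxcl12* and *Cxcl16*, and the cytokine *Mif*. The genes were taken by name, and the CXC chemokines that bind the receptors CXCR2 and CXCR3 are not among them. Of the 10 genes, 8 were listed in at least 1 library, out of 20788 genes listed in the series. Transcripts of *Mif* and *Csf1* were abundant enough to compare in both groups, and *Csf1* was higher in Tyr-H cells. *Ccl20* was above its detection floor in the Tyr-H libraries only.

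Tyr-L and Tyr-H cells are subclones of B16, a melanoma line of C57BL/6 origin, with low and high tyrosinase activity. Both were grown in low-glucose DMEM with serum and antibiotics, and 3 libraries of each were sequenced from cultured cells. Whether each library stands for its own culture, and whether a group is 1 clone or several, is not given in the sources used here, so p-values measure the spread between these libraries, which may be technical. Expression is given in FPKM, fragments normalized to transcript length and sequencing depth, and genes missing from a library's table were taken as 0 and are called not listed. The files hold no counts. The lowest values of genes with 1 long transcript, taken as single fragments, gave an estimated depth of 18800000 to 21000000 fragments in Tyr-L and 19400000 to 21400000 in Tyr-H libraries, and the FPKM that 3 fragments would give a gene is called its floor. Floors and fragment numbers are approximate, rest on the longest annotated transcript, and cover counting error only.

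Colony-stimulating factor 1 (*Csf1*) and interleukin 34 (*Il34*) both bind the receptor CSF1R, which macrophages need to survive. *Csf2* encodes GM-CSF, which acts on granulocytes and macrophages, and *Csf3* encodes G-CSF, the main growth factor of neutrophils. CCL2 and CCL7 bring monocytes out of blood through CCR2, and CCL20 is the ligand of CCR6. CXCL12 acts through CXCR4, CXCL16 is made as a membrane protein that binds CXCR6, and MIF signals through CD74 with CD44 as a partner. Many of these genes respond to NF-kappaB in inflamed tissue.

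The labelled cell type was checked first. All 7 melanocyte markers (*Tyr*, *Tyrp1*, *Dct*, *Pmel*, *Mlana*, *Mitf* and *Sox10*) were listed in every library. *Tyr*, which encodes tyrosinase, was at 9.52 to 10.7 FPKM in Tyr-L and at 19.7 to 23.8 FPKM in Tyr-H libraries. The other 6 markers were lower in Tyr-H by adjusted p (4 of them after median ratio scaling), as were 39.9% of all tested genes, and *Mitf*, the master regulator of melanocytes, was called lower, at 86.6 to 98.2 FPKM in Tyr-L and 23.7 to 26.8 FPKM in Tyr-H libraries (log2 difference -1.85, standard error 0.06, adjusted p = 1.0e-07 from limma). Of 16 macrophage and monocyte markers 11 were listed in no library, among them *Ptprc*, *Adgre1*, *Itgam* and *C1qa*. The summed level of these 16 genes was 3.73 to 4.50 FPKM in Tyr-L and 4.56 to 4.83 FPKM in Tyr-H libraries, most of it *Cd68*. *Mrc1* went the other way, at 0.159, 0.0469 and 0.0638 FPKM in Tyr-L, all above its floor, and was not listed in Tyr-H. *Fcer1g* was above its floor in 1 library only, with an estimated 5.13 fragments at most. It reached the mean of 0.1 FPKM required for a test through Tyr-L. Its log2 difference of -1.15 (adjusted p = 0.052 from limma) is therefore a description. So is the value of -1.75 after rescaling to equal totals (adjusted p = 0.038), where it was called lower. *Cd68*, at 0.23 (adjusted p = 0.1), was higher by adjusted p after median ratio scaling (0.016) and quantile normalization (0.014). Of 9 neutrophil markers 7 were listed in no library, *S100a9* and *Ly6g* included, and the sums were 0 to 0.145 FPKM in Tyr-L and 0 to 0.209 FPKM in Tyr-H. For 9 lymphocyte markers the sums were 0.0325 to 0.331 and 0.0598 to 0.112 FPKM, and for 11 fibroblast and endothelial markers 1.04 to 1.05 and 1.00 to 1.21 FPKM. In the last list *Col1a1* was at a log2 difference of 0.71 (adjusted p = 0.017) and *Col1a2* at -0.91 (adjusted p = 0.0087, both from limma). Neither was called, but after rescaling to equal totals *Col1a2* was called lower, at -1.14 (adjusted p = 0.0068). The part of these markers in the differences between the groups was not tested.

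*Csf1* (ENSMUSG00000014599) codes for protein and occupies bases 107741048 to 107760469 of chromosome 3 (GRCm38, minus strand). It overlaps no other annotated gene. Its level was 5.16, 4.67 and 4.98 FPKM across Tyr-L replicates 1 to 3, and 10.4, 12.5 and 14.6 FPKM across Tyr-H replicates 1 to 3. All Tyr-H libraries were higher than all Tyr-L libraries. An estimated 391 to 419 fragments lay behind each Tyr-L value and 855 to 1182 behind each Tyr-H value. The means were 4.94 ± 0.248 and 12.5 ± 2.11 FPKM (SD, n = 3 each), and the Tyr-H libraries were the more spread of the groups. On log2(FPKM + 0.1) the difference was 1.31 (standard error 0.11, 95% confidence interval 1.06 to 1.56, adjusted p = 1.2e-05 from limma), and the ratio of the mean FPKM was 2.53. An exact permutation test of FPKM (two-sided) gave p = 0.1 for *Csf1*, *Ccl20* and *Mif* alike, and 3 against 3 libraries allow none below that. With bulk RNA, more cells that express a gene and more RNA per cell cannot be told apart. *Csf1* was above 51.0% to 52.1% of the listed genes in Tyr-L libraries and above 65.5% to 72.1% of them in Tyr-H libraries.

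*Ccl20* (ENSMUSG00000026166) codes for protein from the plus strand of chromosome 1, from 83116766 to 83119167, and overlaps no other annotated gene. It was listed in 1 Tyr-L library, replicate 1, at 0.0648 FPKM, which corresponds to an estimated 1.79 fragments and is under the floor of 0.101 to 0.113 FPKM in Tyr-L libraries. The Tyr-H libraries had 3.80, 3.52 and 5.76 FPKM, from an estimated 106, 107 and 158 fragments. *Ccl20* was thus near or under detection in each Tyr-L library and clearly above it in each Tyr-H library, where it was above 47.1% to 54.5% of the listed genes. *Ccl20* passed the filter on low values through its Tyr-H libraries and had to differ, so the fitted difference of 5.21 on log2(FPKM + 0.1) is a description. Its size depends on the constant added before the logarithm, with 7.77 for 0.01 FPKM and 2.37 for 1 FPKM. No plain fold is given, since the Tyr-L level rests on a value under the floor.

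**Figure D1:**
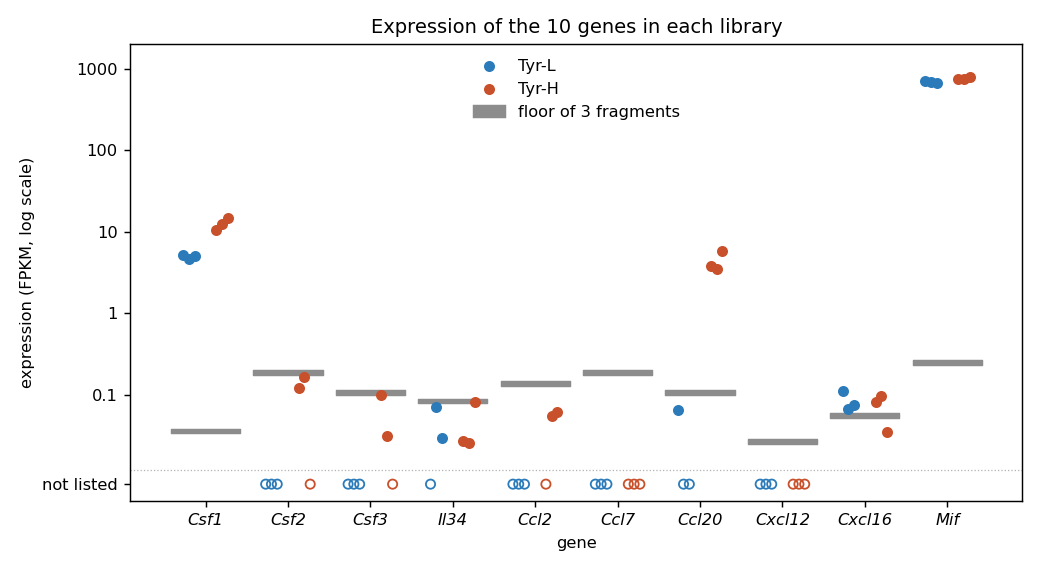
Expression of the 10 genes in FPKM on a log scale, with 1 filled point per library (Tyr-L blue, Tyr-H orange), open points for libraries in which a gene is not listed, and a grey band for the floor of 3 fragments over the 6 libraries. *Mif*, *Csf1* and the Tyr-H values of *Ccl20* lie well above their floors, *Cxcl16* lies around its floor, and the values of *Csf2*, *Csf3*, *Il34* and *Ccl2* lie under theirs.

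*Mif* (ENSMUSG00000033307), on the minus strand of chromosome 10 from 75859353 to 75860240, was by far the most abundant of the 10 transcripts. It had 707, 680 and 660 FPKM in Tyr-L and 737, 751 and 793 FPKM in Tyr-H libraries, and ranked 70th to 76th among all listed genes in each library of either group. The groups did not overlap, and the Tyr-H libraries were the higher ones. The means were 682 ± 23.2 and 761 ± 29.3 FPKM (SD, n = 3 each), a difference of 0.16 on the log2 scale (standard error 0.04, 95% confidence interval 0.06 to 0.25, adjusted p = 0.0098 from limma), which is under the threshold of 1 for a call. The adjusted p passed 0.05 or not with the scaling of the libraries: the difference was 0.31 (adjusted p = 0.00017) after median ratio scaling, 0.06 (adjusted p = 0.14) after rescaling to equal totals and 0.01 (adjusted p = 0.86) after quantile normalization. *Mif* was called under none of the alternatives that kept the fold-change threshold.

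*Ddt* encodes D-dopachrome tautomerase, the paralog of MIF, and lies on the same chromosome. Mean FPKM of *Ddt* was 24.5 ± 1.56 for Tyr-L and 21.5 ± 0.919 for Tyr-H (SD, n = 3 each), a log2 difference of -0.18 (standard error 0.06, adjusted p = 0.018 from limma) that was not called and was -0.03 (adjusted p = 0.66) after median ratio scaling. Because *Gm20441* overlaps it on its own strand, the *Ddt* values are uncertain. A factor applied to a whole library leaves the ratio of both genes as it is, while quantile normalization changes it, with log2 differences of 0.01 for *Mif* and -0.06 for *Ddt*. As deposited, *Mif* over *Ddt* was 30.2, 25.9 and 27.9 in the Tyr-L libraries and 35.5, 33.4 and 37.4 in the Tyr-H libraries, 28.0 ± 2.14 against 35.4 ± 2.00 (SD, n = 3 each), without overlap (p = 0.1 in the two-sided exact permutation test). This ratio was chosen after its values were seen.

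The means of these 3 genes kept the order *Mif*, *Csf1*, *Ccl20* in both groups, each separated from the next by far more than the spread between libraries, except that the Tyr-L value of *Ccl20* stood among those of the genes near detection. These other 7 genes had means of at most 0.0946 FPKM in either group and did not reach the mean of 0.1 FPKM over the 6 libraries that was required for a test. Their order within a group has no meaning beyond the spread.

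Among the growth factors, *Csf2* (chromosome 11, 54247271 to 54249667) was listed in no Tyr-L library and in 2 Tyr-H libraries, at 0.120 and 0.164 FPKM, an estimated 1.89 and 2.80 fragments. *Csf3* (chromosome 11, 98701263 to 98703629) was also listed in no Tyr-L library and in 2 Tyr-H libraries, at 0.0991 and 0.0311 FPKM. *Il34* (chromosome 8, 110741829 to 110805924), the other ligand of CSF1R, was listed in 2 Tyr-L libraries at 0.07 and 0.0296 FPKM and in the 3 Tyr-H libraries at 0.0274, 0.0257 and 0.0811 FPKM. All values of these genes were under the floor of 3 fragments, and the groups overlapped. Of both CSF1R ligands, *Csf1* was therefore the one detected.

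Among the chemokines, *Ccl2* (chromosome 11, 82035571 to 82037453) was listed in no Tyr-L library and in 2 Tyr-H libraries at 0.0549 and 0.0614 FPKM, an estimated 1.29 and 1.30 fragments, under its floor of 0.128 to 0.146 FPKM. *Ccl7* (chromosome 11, 82045712 to 82047525), next to it, and *Cxcl12* (chromosome 6, 117168535 to 117181367) were listed in no library. The floor of *Cxcl12* was 0.0249 to 0.0284 FPKM, the lowest of the 10 genes, because its longest transcript has 5627 nt. *Ccl12*, *Ccl11* and *Ccl8*, chemokine genes of the same cluster as *Ccl2* and *Ccl7*, were not listed in any library either. Neither CCR2 ligand reached its floor in any library.

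*Cxcl16* (chromosome 11, 70453983 to 70459984) was listed in all 6 libraries, with 0.110, 0.0663 and 0.0756 FPKM in Tyr-L and 0.0803, 0.0970 and 0.0353 FPKM in Tyr-H. The groups overlapped (exact permutation test, two-sided, p = 0.7), and an estimated 1.84 to 5.77 fragments lay behind a value. It overlaps *Zmynd15* on the opposite strand and shares its deposited locus with that gene, so its values are uncertain. *Csf2*, *Il34* and *Ccl2* also overlap genes on the opposite strand, none of which was listed in any library. Without the filter on low values, *Csf2*, *Csf3*, *Ccl2*, *Il34* and *Cxcl16* were tested and not called, with adjusted p from 0.096 for *Csf2* to 0.71 for *Il34* (limma).

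Calls among the 3 tested genes were 2 higher in Tyr-H cells and 0 lower by limma (3 and 0 at an unadjusted p under 0.05), where a call needs an adjusted p of at most 0.05 and a log2 difference of at least 1. The background over all 14336 genes in the fit was 2.96% higher and 5.78% lower, 8.75% together. *Csf1*, *Ccl20* and *Mif* all had groups that did not overlap, with the Tyr-H libraries on top, as did 20.2% of all tested genes, while 43.8% had the Tyr-L libraries on top, 64.0% in all. Lack of overlap was therefore common among tested genes. A gene that passes the filter through the group in which it is high, as *Ccl20* does, had to differ. The count of calls among the tested genes is therefore a description, and for the 10 genes as a whole the result is 2 called, 1 tested and not called, and 7 below the filter.

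The sequences before the starts of *Csf1*, *Ccl20* and *Mif* are shown because the first pair was called and *Mif*, the third, was not. They are the 250 bases before the start in RefSeq, build GRCm38.p6, 5′ to 3′ on the strand of the gene. Capitals mark matches, on either strand, to any of 5 motifs. The first is the kappaB consensus and the second TATAA, the TATA box. TGANTCA is the motif of AP-1. TGACGTCA is the cyclic AMP response element. GGGCGG is the GC box.
*Csf1* (chr3:107760470-107760719, minus strand): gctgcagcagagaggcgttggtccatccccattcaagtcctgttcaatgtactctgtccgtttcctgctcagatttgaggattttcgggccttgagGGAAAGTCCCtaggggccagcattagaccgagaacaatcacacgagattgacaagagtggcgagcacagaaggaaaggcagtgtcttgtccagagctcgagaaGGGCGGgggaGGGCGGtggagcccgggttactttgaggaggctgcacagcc
*Ccl20* (chr1:83116516-83116765, plus strand): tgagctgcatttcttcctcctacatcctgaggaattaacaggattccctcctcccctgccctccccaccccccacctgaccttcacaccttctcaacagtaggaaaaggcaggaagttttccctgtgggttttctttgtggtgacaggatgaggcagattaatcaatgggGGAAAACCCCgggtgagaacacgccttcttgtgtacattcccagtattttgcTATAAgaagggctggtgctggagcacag
*Mif* (chr10:75860278-75860527, minus strand): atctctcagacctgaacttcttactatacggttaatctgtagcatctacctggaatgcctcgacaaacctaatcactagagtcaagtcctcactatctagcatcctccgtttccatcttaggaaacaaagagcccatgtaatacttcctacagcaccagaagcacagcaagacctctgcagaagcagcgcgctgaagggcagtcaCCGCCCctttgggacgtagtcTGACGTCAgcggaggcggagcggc

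*Csf1* and *Ccl20* each held 1 match to the kappaB consensus, at 154 to 145 and at 80 to 71 bases before the start, and *Mif* held none. *Ccl20* also held TATAA, at 28 to 24 bases before the start, while *Csf1* held 2 copies of GGGCGG and *Mif* held TGACGTCA and 1 copy of GGGCGG on the other strand. Of 32851 promoter windows of this length, 7.25% held the kappaB consensus, 22.8% the TATA box, 6.75% the AP-1 motif, 1.55% the cyclic AMP response element and 32.7% the GC box. Windows were found for 5 of the 10 genes, and of the others *Csf2* held 1 copy of GGGCGG and *Cxcl12* held 5, with no other match. The match of letters is a description and does not show that a factor binds there.

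AU-rich elements, runs with ATTTA in the 3′ end of a transcript, shorten the life of many cytokine transcripts and are bound by factors that speed or slow decay. The 30 bases of the 3′ untranslated region (GENCODE M21, GRCm38, 5′ to 3′) with most copies are shown for the called genes and for *Csf2* and *Csf3*, with ATTTA in capitals. They start at base 234 of that region in *Csf2*, 28 in *Csf3*, 943 in *Ccl20* and 2027 in *Csf1*.
*Csf2*: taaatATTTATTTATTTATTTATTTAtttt
*Csf3*: gtttATTTAtctctATTTAatATTTAtgca
*Ccl20*: aagatATTTAatgttctgtttATTTAattg
*Csf1*: taaggtcATTTAaatatctATTTAaaaaat
*Csf2* held 9 copies of ATTTA in 317 nt, *Ccl20* 9 in 1050 nt, *Csf3* 6 in 669 nt and *Csf1* 4 in 2111 nt, and *Mif* held 0 in 124 nt. This is 28.4 copies per kilobase in *Csf2*, 8.57 in *Ccl20*, 8.97 in *Csf3* and 1.89 in *Csf1*, against a median of 1.23 over 12023 tested genes. The run TTATTTATT, held by 8.13% of those genes, was found among the 10 genes in *Csf2*. The called pair thus had copies in unlike density, and *Csf2*, which had most, stayed under its floor in every library.

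Of 11 genes for factors that control the decay of cytokine transcripts, all were tested and 0 were called in either direction by limma. Over all tested genes, 2.96% were called higher and 5.78% lower. By adjusted p alone, 2 were higher in Tyr-H cells and 7 lower (at an unadjusted p under 0.05, 2 and 8), where all tested genes gave 17.9% higher and 39.9% lower, 57.8% in all, and their median log2 difference was -0.36 against -0.15 for all tested genes. *Zc3h12a*, which encodes the RNase Regnase-1, had 0.943, 0.998 and 0.792 FPKM in Tyr-L and 1.31, 1.35 and 2.04 FPKM in Tyr-H libraries (log2 difference 0.70, standard error 0.19, adjusted p = 0.012 from limma). Regnase and Roquin proteins (*Zc3h12a*, *Zc3h12c*, *Rc3h1* and *Rc3h2*) recognise stem-loops rather than ATTTA. The other gene higher by adjusted p was *Zfp36* (tristetraprolin), at 2.84 ± 0.248 and 3.55 ± 0.126 FPKM (SD, n = 3 each). After rescaling to equal totals the counts by adjusted p were 1 higher and 8 lower, *Zfp36* having lost its adjusted p (0.09), and after median ratio scaling 2 and 6.

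The receptors of these proteins were mostly not detected in the cells. Of 20 receptor genes, 10 were listed in no library, *Csf1r*, *Csf2rb*, *Csf3r*, *Ccr2*, *Ccr6* and *Cxcr4* among them, so the receptors for the called ligands CSF1 and CCL20 were not listed in the cells that make them. A further 5 were below the filter, and of the 5 tested 1 was called higher and 0 lower, beside 2.96% and 5.78% of all tested genes. By adjusted p alone 1 was higher and 3, *Cd44*, *Ackr3* and *Sdc1*, were lower, beside 17.9% and 39.9% of all tested genes. The 3 became 1 after median ratio scaling and 2 after quantile normalization. The median log2 difference was -0.35 against -0.15 over all tested genes. *Cd74*, the receptor of MIF and the chaperone of MHC class II, had 0.0346, 0.0624 and 0.0355 FPKM in Tyr-L and 0.518, 0.776 and 0.641 FPKM in Tyr-H libraries. All 3 Tyr-L values were under the floor of 0.101 to 0.113 FPKM, so *Cd74*, like *Ccl20*, passed the filter through Tyr-H and had to differ. The fitted log2 difference of 2.36 is given as a description. With 1 FPKM added in place of 0.1 it was 0.65, under the threshold. *Cd44*, the partner of CD74, was abundant (Tyr-L 128 ± 3.12 FPKM, Tyr-H 83.9 ± 1.93 FPKM, SD, n = 3 each), and its log2 difference of -0.61 (standard error 0.03, adjusted p = 1.2e-06 from limma) was not called. *Ackr3*, the scavenging receptor of CXCL12, was at 1.13 ± 0.152 and 0.767 ± 0.0552 FPKM (SD, n = 3 each) and was not called either.

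A list of 11 genes held proteases that release or trim these proteins, partners of the proteases, and *Ddt*, which encodes no protease. Of the list, 7 were tested and 0 were called by limma, beside 2.96% of all tested genes called higher and 5.78% lower. At an unadjusted p under 0.05, 1 was higher and 4, *Ddt* among them, were lower, and the same by adjusted p. By adjusted p, 17.9% of all tested genes were higher and 39.9% lower, 57.8% in all. *Adam10* and *Adam17*, whose products cut CXCL16 and membrane-bound CSF1 from the cell surface, had 45.9 ± 2.16 and 28.1 ± 0.815 FPKM in Tyr-L, against 32.3 ± 1.38 and 21.3 ± 0.578 FPKM in Tyr-H (SD, n = 3 each). *Adam17* overlaps *Iah1* on the opposite strand. Their log2 differences of -0.50 and -0.40 kept their sign in each scaling. *Rhbdf2*, which encodes a partner of ADAM17 in its maturation, went the other way, at 3.29 ± 0.177 and 5.81 ± 0.462 FPKM (log2 difference 0.80, standard error 0.09, adjusted p = 5.5e-05 from limma), under the threshold for a call. *Rhbdf1*, in the same list, was more abundant, at 13.7 ± 0.223 and 14.0 ± 0.381 FPKM (SD, n = 3 each). Its log2 difference was 0.02 (adjusted p = 0.70 from limma), and 0.18 (adjusted p = 0.011) after median ratio scaling.

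Other chemokine genes gave the setting for *Ccl20*. Of 33 further chemokine genes 16 were listed in no library, 8 were below the filter and 9 were tested, of which 5 were called higher and 0 lower by limma, beside 2.96% and 5.78% of all tested genes. By adjusted p alone, and at an unadjusted p under 0.05, 6 were higher and 2 lower, where 17.9% and 39.9% of all tested genes passed by adjusted p. The 2 lower ones, *Ccl25* and *Ccl27a*, became 0 after median ratio scaling or quantile normalization. *Cxcl2*, at 0 in all Tyr-L libraries, passed the filter through Tyr-H and so had to differ. The called genes were *Cxcl1* and *Cxcl2*, ligands of CXCR2, *Cxcl10* and *Cxcl11*, ligands of CXCR3, and *Ccl5*. *Cxcl11* is annotated as a polymorphic pseudogene, a gene that codes for protein in some genomes only. The 6 chemokine genes called higher, *Ccl20* among them, lie on 3 chromosomes, *Cxcl1*, *Cxcl2*, *Cxcl10* and *Cxcl11* on chromosome 5, *Ccl5* on chromosome 11 and *Ccl20* on chromosome 1.

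**Figure D2:**
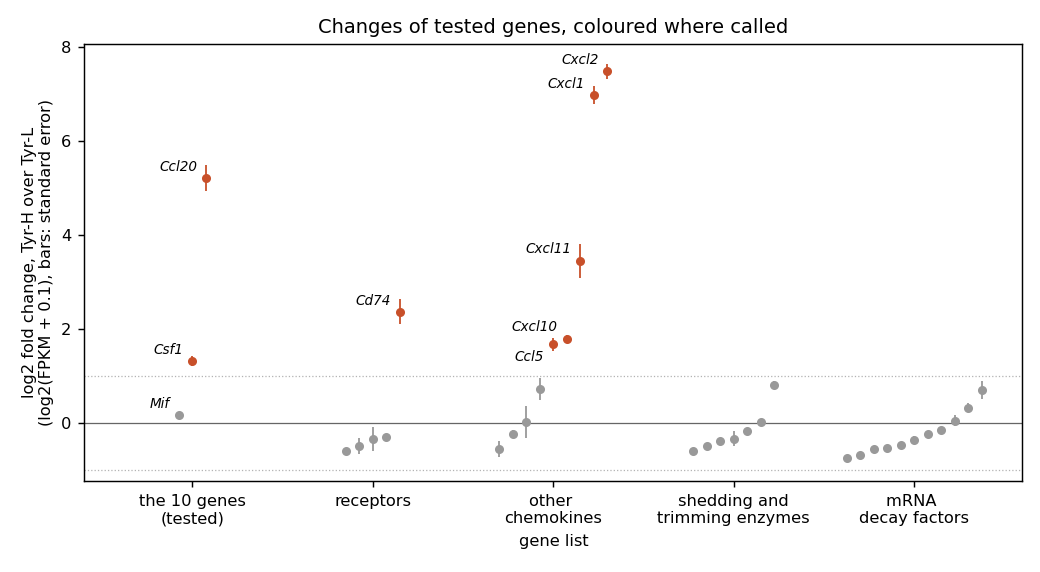
Differences between Tyr-H and Tyr-L cells on log2(FPKM + 0.1) with standard errors for the tested genes of each list, 1 point per gene, with genes called higher in orange and all others in grey. Dotted lines mark a difference of 1 in either direction. The cell type marker lists are not drawn. The called genes are *Csf1* and *Ccl20*, *Cd74* among the receptors and 5 other chemokine genes, and no gene of the protease and decay factor lists reaches a line.

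The nearest tested protein-coding gene on each side gave 18 distinct genes, of which 0 were called by limma, 5 were higher and 7 lower by adjusted p alone and 6 and 8 at an unadjusted p under 0.05 (8.75% of all tested genes were called and 57.8% passed by adjusted p), with log2 differences from -0.89 to 0.65 and a median of 0.05. Next to *Ccl20*, *Agfg1* had a log2 difference of 0.25 and *Trip12* of -0.20. Beside *Csf1*, *Ahcyl1* had -0.45 and *Gstm5* -0.21. None of these 4 genes beside the called pair passed the threshold of 1.

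The genes with values most like those of *Csf1* over the 6 libraries, on log2(FPKM + 0.1) and among the 11023 expressed at 1 FPKM or more on average, were *Aldoa*, *Pgd* and *Pax3*, with Pearson's r from 0.998 to 0.999. For *Ccl20* they were *Gm2606*, *Slc2a1* and *Ldhb*, with r of 0.999 for each. These are descriptions across 6 libraries in 2 groups, where the points of a group share their Tyr-L or Tyr-H label, and 1026 genes for *Csf1* and 1075 for *Ccl20* had an r of at least 0.95.

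The call of *Csf1* held in every alternative tried, with a difference between 1.17 and 1.47 and an adjusted p of at most 0.00097 (limma). The fitted difference of *Ccl20*, a description, lay between 2.37 and 7.77. Leaving out 1 library at a time gave 1.19 to 1.44 for *Csf1*, 4.99 to 5.45 for *Ccl20* and 0.13 to 0.18 for *Mif*. The scalings also moved the median of all tested genes, from -0.15 as deposited to -0.25 after rescaling to equal totals and to -0.01 after median ratio scaling or quantile normalization, and *Csf1* and *Ccl20* lay above each of these by more than 1.

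**Figure D3:**
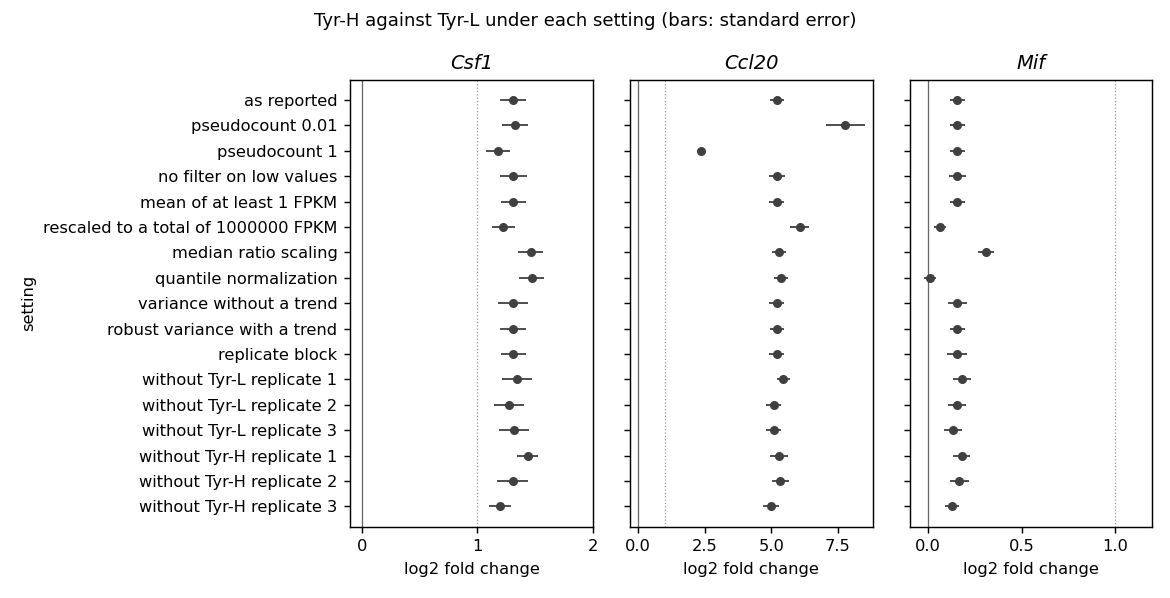
Log2 differences of *Csf1*, *Ccl20* and *Mif* between Tyr-H and Tyr-L cells (horizontal axes, which differ between panels) under each setting (vertical axis), with standard errors and a dotted line at 1. *Csf1* and *Ccl20* stay above 1 in each setting, *Ccl20* moves with the constant added before the logarithm, and *Mif* stays between 0.01 and 0.31.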

How the data were processed

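RNA of 3 Tyr-L and 3 Tyr-H libraries was sequenced by the study as mRNA libraries. The authors deposited 1 table of FPKM values for each library, a unit scaled to transcript length and mapped fragments. The submitters' processing notes name Trimmomatic, HISAT2, HISAT and GRCm38.p6, without versions or roles, and the quantifier and annotation release are not given in the sources used here. Unlisted genes were set to 0. Of 20788 identifiers 20709 were found in GENCODE M21 (GRCm38), the source of coordinates and transcript lengths. Depth was estimated from the median step of low values in genes with 1 transcript of at least 1500 nt.

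Groups and replicate numbers came from the labels. Genes averaging 0.1 FPKM or more (14336) were compared on log2(FPKM + 0.1) with limma 3.58.1 in R 4.3.3, using moderated variances with a trend and p-values adjusted by Benjamini and Hochberg over these genes. A call required both an adjusted p no higher than 0.05 and a log2 difference of 1 or more in size, the study's thresholds. Single genes had an exact permutation test on FPKM, two-sided. The procedure was tested on simulated data. Other steps used Python 3.11.15, pandas 2.3.3, scipy 1.17.1 and matplotlib 3.10.9. Strand of counting is not stated. The 10 genes and the gene lists were chosen with earlier results of these data known, and the motifs, AU-rich runs and *Mif* to *Ddt* ratio after values were seen. By rule the text names all 10 genes, up to 4 called genes per list and direction by size, defining markers at 0, overlapping and neighbouring genes, *Ddt*, *Ccl12*, *Ccl11*, *Ccl8*, and for each called gene the 3 most correlated. Other named genes, *Ccl5* among them, were chosen after their values were seen. Alternatives were the pseudocount, the filter, the scaling, the variance model, the replicate block, each library left out, and no fold-change threshold.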

Additional observations from a re-analysis of the deposited data

How the results depend on the processing

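The number of genes called higher among the 10 was 2 in every alternative with a fold-change threshold and 3, with *Mif*, without that threshold, and 0 were called lower in each. *Ccl20*, counted in each of these, was near or under detection in Tyr-L and had to differ. *Mif* counted as called when no fold-change threshold was set, at a log2 difference of 0.16. Over all tested genes 1254 were called, and 388 with a pseudocount of 1 FPKM, 640 with a mean of at least 1 FPKM required and 8292 without the fold-change threshold. Leaving out 1 library at a time gave 1149 to 1279. The share of calls that were higher in Tyr-H cells was 33.9% (425 higher, 829 lower), against 47.8% with 538 higher and 588 lower under median ratio scaling, 55.3% with 611 and 494 under quantile normalization, 25.5% with 403 and 1175 after rescaling to equal totals, and 47.7% with 185 and 203 for a pseudocount of 1 FPKM. The cause of these shifts was not tested.

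The libraries share replicate numbers 1 to 3 across groups. Deviations of same-numbered libraries from their group means had correlations of 0.02, 0.01 and -0.08 over all tested genes. Whether libraries with the same number share a culture or a batch is not given in the sources used here, and these correlations cannot settle it. With the replicate block, 2 of the 10 genes were called higher, 0 lower and 1258 genes in all, and no call among the 10 genes changed. Depth limits the 7 genes below the filter, whose values rest on an estimated 5.77 fragments at most. *Cd74* was not called with a pseudocount of 1 FPKM, at 0.65.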
